A study of Fragaria x ananassa with 9 samples.

Results

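The comparison described here sets the big bud (PF_D) against the young bud (PF_L), the latest and the earliest of 3 petal stages sequenced in the pink-flowered strawberry cultivar Sijihong. Sijihong is an ornamental strawberry from a breeding line of Fragaria crossed with Potentilla. In PF_D the sepals had opened and the closed petals were in full color, and in PF_L the sepals were closed over colorless petals. Both groups came from untreated petals of the same cultivar, with 3 biological replicates each, so 6 of the 9 libraries of the series entered the comparison and the 3 libraries of the stage at which color begins (PF_Z) only added to the estimate of the spread. Of 50285 unigenes (assembled transcripts, 1 per cluster) in the deposited table, 47924 (95.3%) reached 1 TPM in 3 or more of the 9 libraries and were tested. TPM is transcript abundance per length of transcript, scaled to the same total in every library.

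A petal starts as a small, pale green organ that grows by cell division and later by expansion of cells whose central vacuole takes up water, sugar and ions while the wall yields. Its plastids lose chlorophyll, and the vacuoles of the epidermis fill with anthocyanins, which are built from phenylalanine through the phenylpropanoid and flavonoid routes. The outer cells cover themselves with cutin and wax, and many petals also emit terpenes or other scent compounds before and during opening. Growth hormones such as auxin and gibberellin act on the expansion phase, and cytokinin is known for its part in the dividing phase.

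Gene names below are those of the best protein match in the authors' annotation, mostly from other plants, so a name marks a relative and not a characterized strawberry gene. Roles are known from the named species or from Arabidopsis unless stated. Values were compared as log2(TPM + 1) with limma, and a unigene was called where its log2 fold change was 1 or more, or -1 or less, and its Benjamini-Hochberg adjusted p was under 0.05. Fold changes are PF_D over PF_L on that scale, given ± the standard error, and the added 1 shrinks those of genes at a few TPM. Since TPM does not record how many reads lie behind it, no counting error can be given. With 3 libraries against 3, an exact permutation test of a single gene cannot go below p = 0.10, and calls therefore rest on the limma model. In whole petals, fewer cells of a type and less RNA per cell cannot be told apart.

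Between PF_D and PF_L, 12042 unigenes were called, 25.1% of those tested, of which 4497 were higher in PF_D (9.38% of those tested) and 7545 were lower (15.7%). More unigenes fell than rose, yet the calls in both directions carried a like share of the transcripts. The unigenes called higher held 28.1% to 28.6% of all TPM in the PF_D libraries, against 5.71% to 6.43% in the PF_L libraries. Those called lower held 6.12% to 7.77% of all TPM in PF_D, against 27.7% to 29.8% in PF_L. At least a log2 fold change of 2 was reached by 1424 of the rises and 2314 of the falls, and one of at least 5 by 87 rises and 63 falls. The 3 PF_D values lay all above the 3 PF_L values for 4441 of the unigenes called higher and all below them for 7453 of those called lower. Among all tested unigenes, called or not, 9892 had PF_D entirely above PF_L and 14145 entirely below. The balance of the 2 directions depended on scaling, since rises made up 37.3% of the calls on the TPM as deposited, 44.0% after median ratio scaling and 47.3% after quantile normalization. The median log2 fold change of all tested unigenes was -0.12 as deposited, -0.02 after median ratio scaling and 0.03 after quantile normalization, and fold changes below are to be read against that shift.

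**Figure D1:**
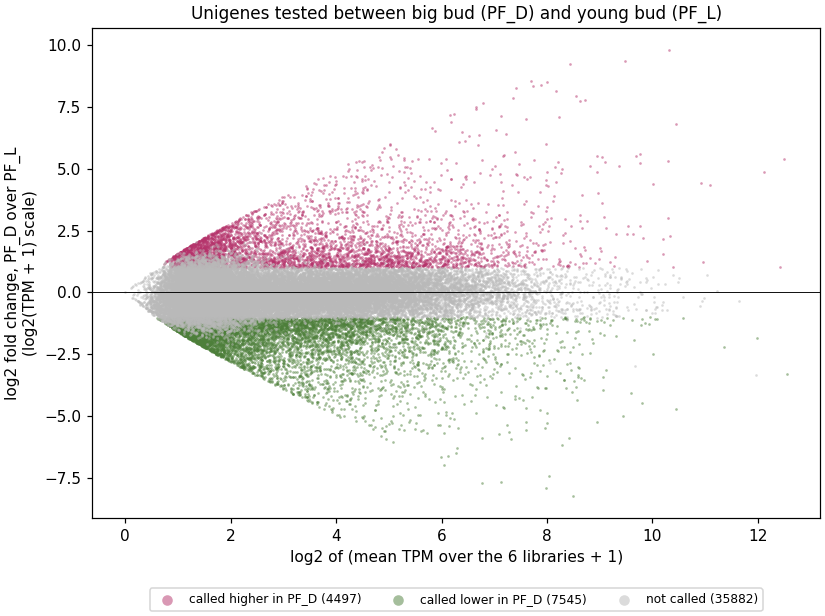
Each point is 1 of 47924 tested unigenes, with the log2 of its mean TPM over the 3 PF_D and 3 PF_L libraries plus 1 on the x axis and its log2 fold change of PF_D over PF_L on the y axis. The 4497 unigenes called higher in PF_D and the 7545 called lower are colored. The wedge at the left comes from the 1 added to each TPM, which limits the fold change of genes at a few TPM.

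Calls were more frequent among abundant unigenes. Of unigenes whose mean stayed under 3 TPM in the higher stage, 11.9% were called, against 30.2% from 3 to 10 TPM, 30.9% from 10 to 100 TPM and 45.4% above 100 TPM. The median standard error was 0.41 in the lowest of these classes and 0.19 in the highest. Falls outnumbered rises below 100 TPM, and above 100 TPM the 2348 unigenes split into 554 rises and 511 falls.

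The libraries of each stage resembled each other more than those of the other stage. Across tested unigenes, which are not independent replicates, log2 values correlated at 0.928 to 0.951 among the PF_D libraries and at 0.932 to 0.946 among the PF_L libraries, against 0.760 to 0.793 between the stages. Fewer unigenes reached 1 TPM in PF_D (38465 to 39743 per library) than in PF_L (41149 to 41396). A list of MADS-box genes known for petal identity was read as a marker, although some such genes also act in other floral organs. The 19 measured unigenes of this list, 18 of them tested, summed to 4174, 4955 and 4524 TPM in PF_D, against 5235, 4769 and 5080 TPM in PF_L. Of those tested, 5 (27.8%, beside 9.38% of all tested unigenes) were called higher and 1 (5.56%, beside 15.7%) lower. Their median log2 fold change was 0.46, and 7 were called higher after median ratio scaling. The highest member of the list, PMADS2 (TRINITY_DN23056_c0_g2), a relative of a petunia B-class gene, had 842, 918 and 801 TPM in PF_D, against 1181, 1305 and 1383 TPM in PF_L, and its log2 fold change of -0.59 ± 0.17 was under the limit of a call. Genes that specify stamens and carpels were at a much lower level. All 10 measured unigenes of that list, 9 of them tested, together had 46.5, 40.4 and 49.3 TPM in PF_D, against 53.1, 71.6 and 65.8 TPM in PF_L. Most of it came from AGL1 (TRINITY_DN18146_c1_g3), with 39.2, 29.4 and 36.1 TPM in PF_D, against 39.1, 49.5 and 37.9 TPM in PF_L. In PF_D libraries 1 to 3, genes named for stamens, tapetum or pollen summed to 2015, 858 and 1067 TPM, against 1630, 2039 and 1861 TPM in the PF_L libraries. Of the 29 tested, 9 were called higher and 7 lower in PF_D (4 lower after either other scaling), and 2 of the 33 measured were listed at 0 in all 3 PF_D libraries and 3 in all 3 PF_L libraries. Most of that sum came from a short unigene that resembles a pollen extensin (TRINITY_DN23584_c0_g3), which had 1424, 600.5 and 721 TPM in PF_D, against 1217, 1586 and 1426 TPM in PF_L and overlapped between the stages. The tomato pollen gene relative LAT52 (TRINITY_DN11388_c0_g1) had 63.8, 7.82 and 31.5 TPM in PF_D, against 1.23, 1.1 and 0.44 TPM in PF_L (3.81 ± 0.60). Of 19 epidermis markers, 6 were called lower, none higher and 13 not called, with a median log2 fold change of -0.01 beside -0.12 for all tested unigenes. They summed to 513, 592 and 546 TPM in PF_D, against 1045, 1179 and 1141 TPM in PF_L. A single member, PDF1 (TRINITY_DN13966_c0_g1), had 472, 540 and 504 TPM of that in PF_L, against 1.98, 0.99 and 0.63 TPM in PF_D. What part RNA of other floral organs has in the results below was not tested.

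Lists of genes by function, matched on the protein descriptions, held 3183 of the tested unigenes in 61 groups. Of their members, 477 were called higher in PF_D and 918 (28.8%) lower, beside 9.38% and 15.7% of all tested unigenes, and each list is read here against these shares. A member that passed the filter on low values only through the stage where it was high had to differ, so the counts describe the members tested and not all members of a family. The summed TPM of a list covers all its measured members, tested or not.

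**Figure D2:**
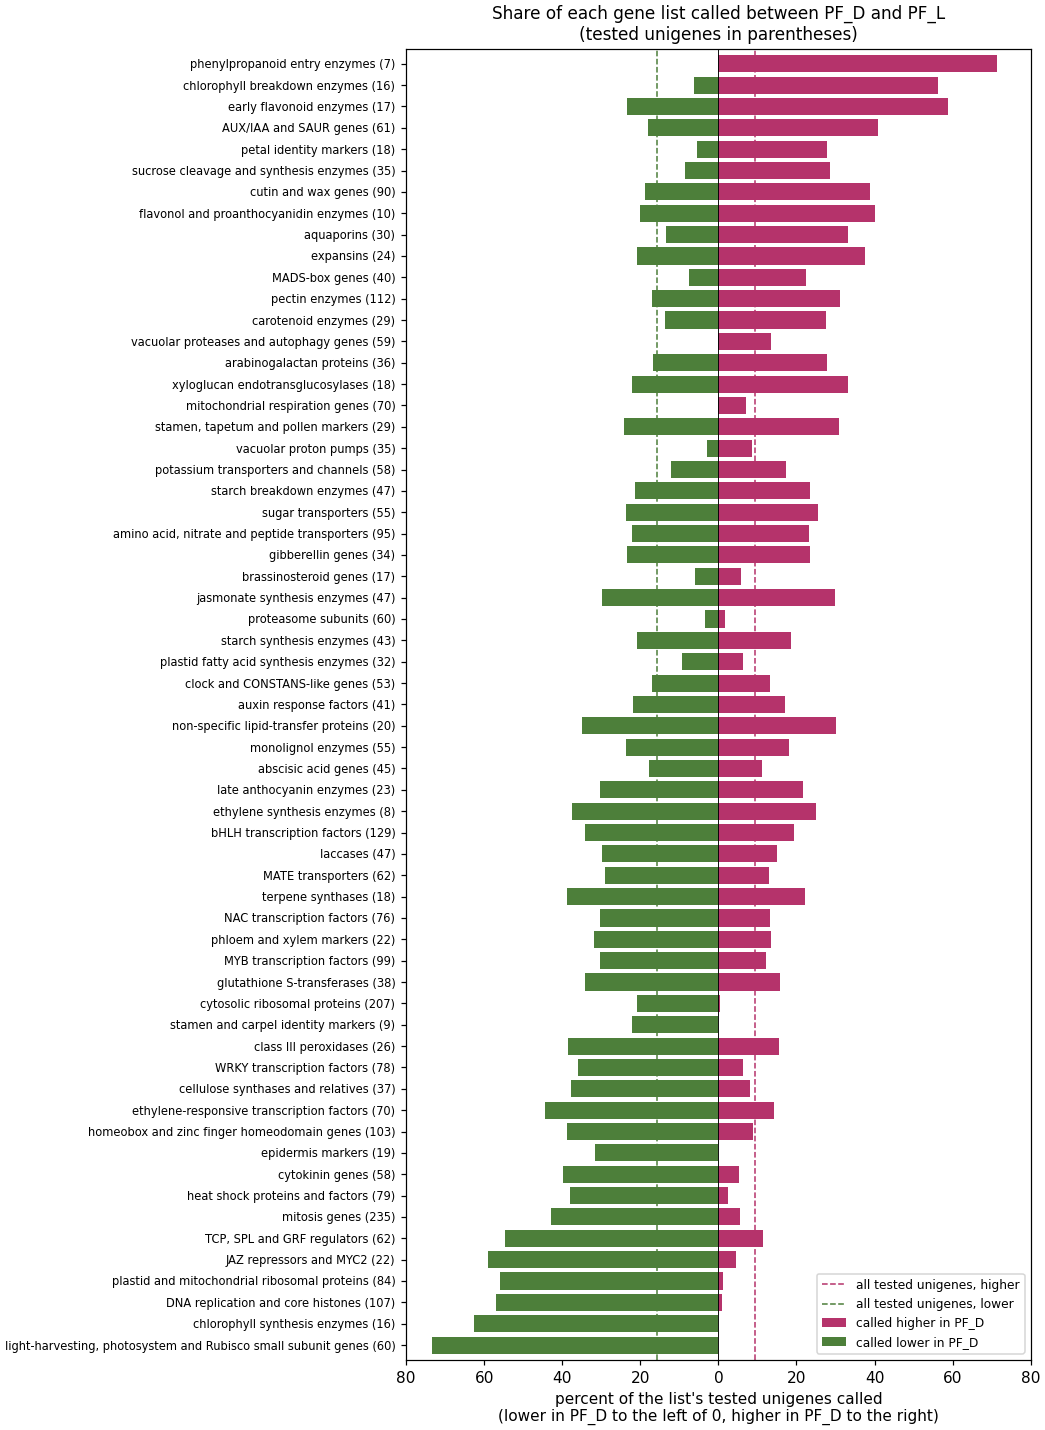
Each row is a gene list with the number of its tested unigenes in parentheses. Bars to the right give the percent called higher in PF_D and bars to the left the percent called lower, and the dashed lines mark the 9.38% and 15.7% of all tested unigenes called higher and lower. Phenylpropanoid entry enzymes stand at the top with 71.4% called higher, and the light-harvesting and photosystem list stands at the bottom with 73.3% called lower.

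Genes of the pigment route were among those that rose most, and the rise was carried by a few abundant unigenes. Of 7 tested enzymes at the entry of the phenylpropanoid route, 5 were called higher and none lower, with a median log2 fold change of 1.45 beside -0.12 for all tested unigenes. The leading one was PAL1 (TRINITY_DN17398_c0_g2), phenylalanine ammonia-lyase, which opens the route and had 148, 220.3 and 201 TPM in PF_D, against 19.9, 10.4 and 14.2 TPM in PF_L, a log2 fold change of 3.62 ± 0.26. Of 17 early flavonoid enzymes, 10 were higher and 4 lower. Together they summed to 3588, 5699 and 5144 TPM in PF_D, against 648, 301 and 457 TPM in PF_L. Most of it was chalcone synthase, which makes the flavonoid skeleton. The unigene CHS1 (TRINITY_DN26374_c0_g4), a short one of 260 bases, alone had 2746, 4464 and 3829 TPM in PF_D, against 284, 100.1 and 169 TPM in PF_L (4.41 ± 0.41), and so ranked among the 10 most abundant unigenes of PF_D. In all 3 PF_D libraries this sum stood above that of every PF_L library, and PF_L replicate 2 had the lowest sum of all 6 libraries. Single members went apart. Of 6 tested unigenes matched to the flavonoid 3'-monooxygenase CYP75B2, 2 were called higher and 2 lower.

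Late anthocyanin enzymes were split. Of 23 tested unigenes, 5 were called higher and 7 lower (6 and 5 after either other scaling, 4 and 2 with a pseudocount of 5), and the median log2 fold change was -0.30, while their summed level was 1555, 2635 and 1984 TPM in PF_D, against 283, 298 and 315 TPM in PF_L. Of the 5 that rose, the 3 named by rule were among the largest rises of the comparison. Dihydroflavonol reductase, DFR (TRINITY_DN14121_c0_g3), which makes the colorless precursor of anthocyanidins, had 259.6, 814 and 638 TPM in PF_D, against 1.84, 0.23 and 0.69 TPM in PF_L (8.15 ± 0.47). The next enzyme of the route, ANS (TRINITY_DN20632_c0_g1), leucoanthocyanidin dioxygenase, had 736, 1014 and 758 TPM in PF_D, against 5.2, 1.17 and 3.01 TPM in PF_L (7.78 ± 0.36). The strawberry glucosyltransferase GT1 (TRINITY_DN20511_c0_g4), which attaches glucose to anthocyanidins and makes them stable, had 328, 513 and 315 TPM in PF_D, against 2.63, 1.37 and 1.83 TPM in PF_L (7.02 ± 0.29). In all of these 3 unigenes every PF_D library lay far above every PF_L library. A further unigene matched to a dihydroflavonol reductase, DFRA (TRINITY_DN17621_c2_g1), went the other way, with 4.7, 5.75 and 4.66 TPM in PF_D, against 22.3, 14.7 and 20.5 TPM in PF_L (-1.72 ± 0.20). Near the pigment enzymes in size of change was GSTF11 (TRINITY_DN12743_c0_g1), a glutathione transferase of the phi class, a class whose members in other plants carry flavonoids to the vacuole, with 626, 905 and 718 TPM in PF_D, against 2.74, 1.14 and 2.53 TPM in PF_L (7.93 ± 0.28). The glutathione transferase list as a whole had 6 unigenes higher and 13 lower of 38 tested.

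Side branches of the flavonoid route went in both directions. Flavonol synthase, FLS (TRINITY_DN19380_c0_g2), whose products are the pale co-pigments of many petals, had 201, 201 and 303 TPM in PF_D, against 54.3, 21.2 and 35.9 TPM in PF_L (2.70 ± 0.33). Anthocyanidin reductase leads to proanthocyanidins, and 1 unigene of it, TRINITY_DN18130_c0_g3, had 2.33, 1.63 and 3.09 TPM in PF_D, against 15.7, 11.9 and 9.77 TPM in PF_L (-2.01 ± 0.29), while another, TRINITY_DN15157_c0_g2, had 1.81, 15.5 and 11.1 TPM in PF_D, against 0.23, 0.28 and 0.28 TPM in PF_L (2.71 ± 0.55). Monolignol enzymes, which take the same precursor toward lignin, showed 10 rises and 13 falls among 55, with a median of -0.15. The balance turned with scaling, to 14 rises and 10 falls after median ratio scaling and to 14 rises, 9 falls and a median of 0.03 after quantile normalization. The methyltransferase COMT1 (TRINITY_DN15123_c0_g1) had the largest rise of them, at 87.8, 64.2 and 80.5 TPM in PF_D, against 1.65, 1.14 and 1.18 TPM in PF_L (5.07 ± 0.23). The largest fall was in a caffeoylshikimate esterase, TRINITY_DN24133_c1_g2, at 4.13, 0.5 and 5.94 TPM in PF_D, against 75.7, 61.9 and 64.4 TPM in PF_L (-4.18 ± 0.45). A unigene of the shikimate route, which supplies phenylalanine, was among the largest falls. This bifunctional dehydratase and dehydrogenase, EMB3004 (TRINITY_DN15058_c0_g3), had 0.44, 1.11 and 1.51 TPM in PF_D, against 101, 93.8 and 87.9 TPM in PF_L (-5.59 ± 0.32).

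In the plastid, genes of chlorophyll synthesis fell and genes of chlorophyll breakdown rose. Of 16 tested synthesis enzymes none was called higher (1 after quantile normalization) and 10 were called lower (median -1.50). The most abundant, CRD1 (TRINITY_DN19169_c0_g1), which closes the fifth ring of chlorophyll, had 96.4, 47.3 and 67.3 TPM in PF_D, against 531, 390.3 and 445 TPM in PF_L (-2.73 ± 0.29), and the light-driven protochlorophyllide reductase PORA (TRINITY_DN15072_c0_g2) had 33.2, 6.29 and 20.4 TPM in PF_D, against 171, 99.9 and 133 TPM in PF_L (-2.92 ± 0.57). Of 16 breakdown enzymes 9 were higher and 1 lower (median 1.07). The rise was led by SGR1 (TRINITY_DN26583_c0_g2), the STAY-GREEN protein that removes magnesium from chlorophyll, with 215, 191 and 232 TPM in PF_D, against 3.54, 4.91 and 4.43 TPM in PF_L (5.34 ± 0.23). Pheophytinase, which acts after it, was matched by several unigenes. Of these, PPH (TRINITY_DN16671_c0_g1) had 80.9, 117 and 94.4 TPM in PF_D, against 5.88, 6.43 and 6.85 TPM in PF_L (3.72 ± 0.24), and TRINITY_DN26536_c0_g2 had 19.7, 24.4 and 32.6 TPM in PF_D, against 67.3, 63.5 and 86.9 TPM in PF_L (-1.48 ± 0.23).

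Genes of the photosynthetic apparatus fell as well. Of 60 tested unigenes of light-harvesting proteins, photosystems and the small subunit of Rubisco, 44 (73.3%) were called lower and none higher, with a median of -2.33. Their sum was 3247, 1155 and 2230 TPM in PF_D, against 16350, 11550 and 13620 TPM in PF_L. PF_D replicate 2 was the lowest of the PF_D libraries, and all 3 lay well below PF_L. The same order is seen in LHCB3 (TRINITY_DN21489_c0_g2), an antenna protein of photosystem II, with 34.7, 4.85 and 20.2 TPM in PF_D, against 515, 393 and 435 TPM in PF_L (-4.76 ± 0.71). Leaving out 1 library at a time gave 37 to 45 falls and no rise in this list. These genes also mark green sepal tissue, and what part of the fall comes from sepals was not tested. Plastid and mitochondrial ribosomal proteins also had many falls, 47 of 84 against 1 rise. The plastid subunit RPL35 (TRINITY_DN12471_c0_g2) had 126, 63.2 and 97.03 TPM in PF_D, against 1008, 928 and 992 TPM in PF_L (-3.39 ± 0.30). Few mitochondrial respiration genes were called. Of 70 tested, 5 (7.14%, beside 9.38% of all tested unigenes) were higher and none lower, with a median of 0.20, and the count higher was 8 after median ratio scaling and 1 with a pseudocount of 5. The largest of those rises among genes at a mean of 10 TPM or more in the higher stage was FRO1 (TRINITY_DN15726_c0_g1), a subunit of complex I, at 41.1, 72.8 and 61.3 TPM in PF_D, against 13.97, 20.4 and 17.02 TPM in PF_L (1.69 ± 0.22).

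Carotenoid genes had more rises than falls. Of 29 tested, 8 were higher and 4 lower, and only 2 were lower under either other scaling. The largest rises were in beta-ring hydroxylases, which turn beta-carotene into xanthophylls. The unigene CA2 (TRINITY_DN20509_c1_g1) had 139.8, 149 and 141 TPM in PF_D, against 0.15, 0.2 and 0.29 TPM in PF_L (6.89 ± 0.21). A unigene of the same cluster, TRINITY_DN20509_c1_g2, had 126, 151 and 171 TPM in PF_D and was listed at 0 in all 3 PF_L libraries. The hydroxylase of the other branch, CYP97C1 (TRINITY_DN19611_c0_g1), which acts on epsilon rings on the way to lutein, had 2.34, 2.09 and 2.51 TPM in PF_D, against 14.5, 13.8 and 12.6 TPM in PF_L (-2.14 ± 0.19). The cleavage enzyme CCD1 (TRINITY_DN21181_c0_g1), which releases volatile fragments of carotenoids, had 186, 295 and 250.0 TPM in PF_D, against 139.8, 126 and 139 TPM in PF_L, a log2 fold change of 0.82 ± 0.19 that did not reach the limit of 1.

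**Figure D3:**
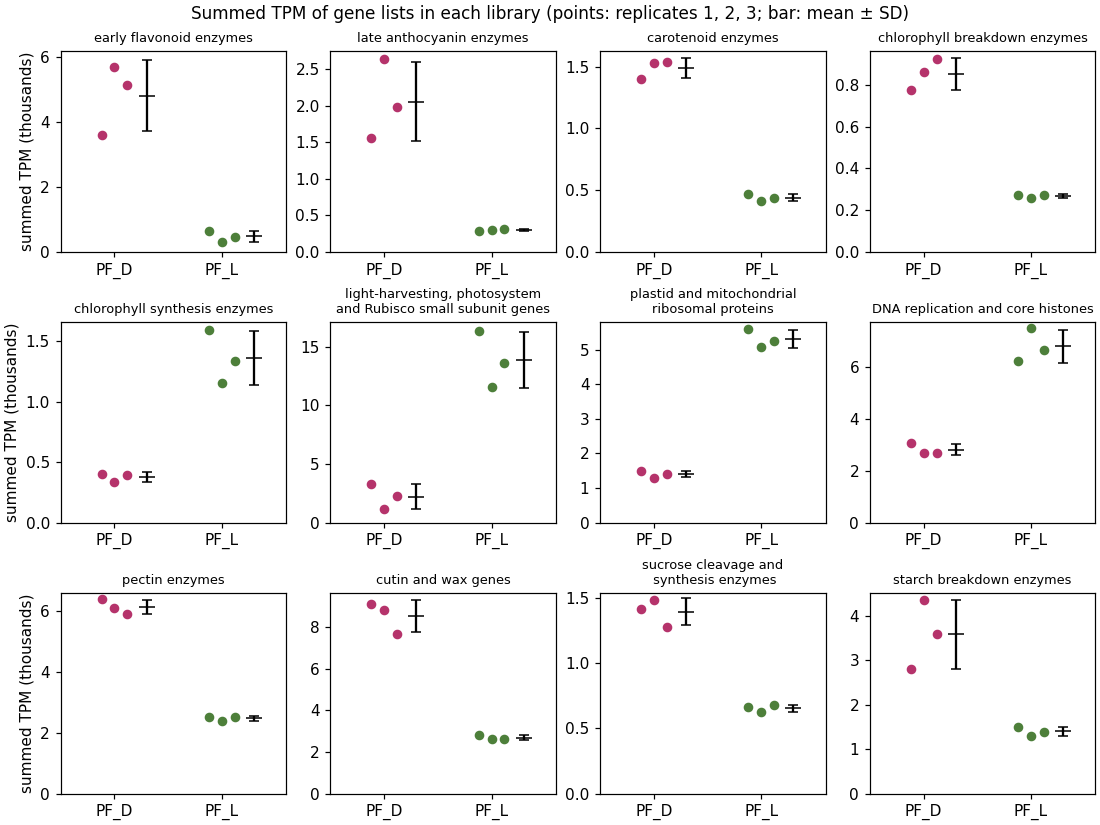
Summed TPM of the unigenes of 12 gene lists, drawn in units of 1000 TPM, for replicates 1 to 3 of PF_D (left in each panel) and PF_L (right). Points are libraries and bars give the mean ± SD of 3 libraries. Light-harvesting and photosystem genes summed to 1155 to 3247 TPM in PF_D, against 11550 to 16350 TPM in PF_L, and cutin and wax genes to 7674 to 9129 TPM in PF_D, against 2602 to 2818 TPM in PF_L.

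Cell division genes fell widely. Of 107 tested unigenes for DNA replication and core histones, 61 were called lower and 1 higher, with a median of -1.36. Of 235 mitosis genes (cyclins, cell cycle kinases, kinesins and spindle proteins), 101 were lower and 13 higher, with a median of -0.74. A cyclin B relative from soybean, TRINITY_DN14775_c0_g2, which drives entry into mitosis, had 0.25, 0.21 and 0.26 TPM in PF_D, against 38.3, 52.4 and 42.4 TPM in PF_L (-5.18 ± 0.26). It stood under 1 TPM in every PF_D library. The histone H2AX unigene HIS2A (TRINITY_DN14790_c0_g7) was listed at 0 in all 3 PF_D libraries and had 45.5, 71.4 and 62.6 TPM in PF_L. The histone H3.3 unigene HTR4 (TRINITY_DN20722_c0_g1), a variant that is also put into chromatin outside replication, was the most abundant of the replication list and had 878, 733 and 773 TPM in PF_D, against 897, 893 and 875 TPM in PF_L, with overlapping values. The largest rise of the mitosis list was in the kinesin KIN14G (TRINITY_DN22464_c0_g2), with 42.1, 34.8 and 49.5 TPM in PF_D, against 1.45, 2.36 and 0.75 TPM in PF_L (4.13 ± 0.28). Regulators of the TCP, SPL and GRF families, many of which time cell proliferation in leaves and petals, had 34 falls and 7 rises among 62 (11 rises after median ratio scaling). Among them SPL4 (TRINITY_DN20217_c0_g1) had 11.1, 2.01 and 12.9 TPM in PF_D, against 416, 364 and 351 TPM in PF_L (-5.56 ± 0.48), and PF_D replicate 2 was again lowest.

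Genes of protein synthesis and folding had more falls than rises, and few genes of protein turnover were called. Of 207 cytosolic ribosomal proteins, 43 were called lower (20.8%, beside 15.7% of all tested unigenes) and 1 higher, with a median of -0.70, and 177 of the 207 had a fold change below 0. This count turned on scaling, since median ratio scaling left 15 falls and quantile normalization 46. Their sum was 22410, 22210 and 23540 TPM in PF_D, against 38310, 38480 and 37610 TPM in PF_L. The most abundant member, RPL10 (TRINITY_DN25647_c0_g2), had 843, 893 and 869.6 TPM in PF_D, against 868, 980.1 and 884 TPM in PF_L with a log2 fold change of -0.07 ± 0.15, and it turned positive after median ratio scaling. Heat shock proteins and factors had 30 falls and 2 rises among 79. The Hsp90 relative HSP82 (TRINITY_DN23747_c0_g1) had 652, 653 and 659 TPM in PF_D, against 1268, 1263 and 1436 TPM in PF_L (-1.01 ± 0.17), a call lost after median ratio scaling and without PF_L replicate 3, where the fold change was -0.95. The small heat shock protein HSP23.6 (TRINITY_DN13481_c0_g1) had 0.09, 0.21 and 0.06 TPM in PF_D, against 2.84, 68.2 and 6.92 TPM in PF_L (-3.52 ± 0.82), so that its PF_L level rested mostly on replicate 2. Of 60 proteasome subunits, 3 were called, 1 higher and 2 lower (2 and 1 after either other scaling), well under the share among all tested unigenes. Vacuolar proteases and autophagy genes had 8 rises and no fall among 59, among them ATG8G (TRINITY_DN21919_c0_g2), a protein of the autophagosome membrane, with 315, 331 and 349.6 TPM in PF_D, against 106.5, 104 and 102 TPM in PF_L (1.66 ± 0.12).

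Wall-modifying genes changed in both directions. Of 112 tested pectin enzymes, 35 rose and 19 fell, and they summed to 6407, 6092 and 5925 TPM in PF_D, against 2515, 2391 and 2524 TPM in PF_L. Their member with the highest mean over the 6 libraries, the measure of abundance used for list members here, was PAE8 (TRINITY_DN26738_c1_g1), which removes acetyl groups from pectin. It had 454, 376 and 382 TPM in PF_D, against 266, 217 and 275 TPM in PF_L, and its log2 fold change of 0.68 ± 0.19 stayed under the limit. The largest rise was in the polygalacturonase At1g48100 (TRINITY_DN24511_c0_g1), of a family that cuts pectin chains, with 344, 639 and 551 TPM in PF_D, against 0.21, 0.48 and 0.38 TPM in PF_L (8.52 ± 0.28). Of the 4 tested unigenes with this match, 2 were called lower. The larger of these falls was in TRINITY_DN23598_c0_g1, with 12.87, 5.67 and 8.95 TPM in PF_D, against 99.98, 58.62 and 90.01 TPM in PF_L (-3.07 ± 0.37). Among falls, the pectinesterase PME68 (TRINITY_DN15760_c0_g1) had 0.02, 0 and 0.07 TPM in PF_D, against 11.7, 19.4 and 22.7 TPM in PF_L (-4.15 ± 0.29). Xyloglucan endotransglucosylases cut and rejoin the chains that tie cellulose fibrils, and of 18 tested 6 rose and 4 fell. XTH8 (TRINITY_DN12086_c0_g1) had 24.7, 27.8 and 21.97 TPM in PF_D, against 0.78, 0.22 and 0.42 TPM in PF_L (4.14 ± 0.24), whereas XTH9 (TRINITY_DN18085_c0_g1) had 28.3, 2.92 and 15.4 TPM in PF_D, against 632, 335 and 510.1 TPM in PF_L (-5.27 ± 0.62). The PF_D values of XTH9 spread widely, with replicate 2 the lowest, and all lay below every PF_L value.

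Cellulose synthases and their relatives had 3 rises (5 after median ratio scaling) and 14 falls among 37. The primary wall subunit CESA3 (TRINITY_DN27223_c0_g2) was their most abundant member and had 173, 228 and 195 TPM in PF_D, against 131, 97.1 and 119 TPM in PF_L (0.78 ± 0.17), under the limit of a call although PF_D lay above PF_L in every library. Arabinogalactan proteins of the cell surface had 10 rises and 6 falls among 36. The peptide AGP20 (TRINITY_DN13429_c0_g1) had 69.5, 31.9 and 35.3 TPM in PF_D, against 1.12, 0.83 and 0.63 TPM in PF_L (4.57 ± 0.31), and the fasciclin-like FLA10 (TRINITY_DN20324_c0_g1) had 33.05, 20.5 and 21.5 TPM in PF_D, against 135, 142 and 141 TPM in PF_L (-2.46 ± 0.18). Class III peroxidases, which can stiffen walls, had 10 falls and 4 rises among 26. The most abundant, PER42 (TRINITY_DN15214_c1_g1), had 4.12, 1.46 and 4.38 TPM in PF_D, against 146, 149.9 and 116 TPM in PF_L (-5.07 ± 0.27). Proline-rich and other wall proteins were among the most abundant transcripts of the petal. A putative cell wall protein, At2g20870 (TRINITY_DN19296_c0_g2), had 10673, 3079.9 and 11966 TPM in PF_D, against 373, 168 and 241 TPM in PF_L (4.88 ± 0.52), and PF_D replicate 2 again stood apart from the other PF_D libraries.

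Genes of water and ion movement were called more often higher than lower. Aquaporins let water through membranes, and of 30 tested, 10 rose and 4 fell. The largest rise was in NIP1-1 (TRINITY_DN24247_c0_g1), with 379, 314 and 298 TPM in PF_D, against 15.1, 9.14 and 10.6 TPM in PF_L (4.73 ± 0.22), and the largest fall in the tonoplast aquaporin TIP1-2 (TRINITY_DN22492_c0_g1), with 8.45, 5.39 and 11.9 TPM in PF_D, against 104, 413 and 238 TPM in PF_L (-4.57 ± 0.57). The most abundant aquaporin, PIP2-7 (TRINITY_DN19407_c0_g1) of the plasma membrane, had 3495, 2213 and 1799 TPM in PF_D, against 2635, 1855 and 2439.6 TPM in PF_L, and its values overlapped between the stages. Vacuolar proton pumps, which energize uptake into the vacuole, were called in only 3 rises (8.57%, beside 9.38% of all tested unigenes) and 1 fall. With a pseudocount of 5 there was 1 rise and no fall. Of the 35 tested, 29 had a fold change above 0, with a median of 0.50 beside -0.12 for all tested unigenes. The pyrophosphate-driven pump AVP1 (TRINITY_DN22446_c0_g1) had 118, 138 and 134 TPM in PF_D, against 41.02, 35.4 and 36.2 TPM in PF_L (1.76 ± 0.14). Potassium transporters and channels had 10 rises and 7 falls among 58 (11 and 4 after quantile normalization). POT2 (TRINITY_DN26737_c0_g1) was the most abundant of these, with 133, 143 and 132 TPM in PF_D, against 41.8, 40.5 and 39.8 TPM in PF_L (1.72 ± 0.19), and POT1 (TRINITY_DN25998_c0_g1) had the largest rise, with 16.5, 16.6 and 26.2 TPM in PF_D, against 0.18, 0.16 and 0.03 TPM in PF_L (4.18 ± 0.39).

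Sugar enzymes included one of the largest rises in the comparison. The vacuolar acid invertase relative INVA (TRINITY_DN24289_c0_g1) splits sucrose into glucose and fructose, and it had 462, 449.7 and 352 TPM in PF_D, against 0.28, 0.44 and 0.17 TPM in PF_L (8.34 ± 0.20). It was also the most abundant of the 35 tested enzymes of sucrose cleavage and synthesis, of which 10 rose and 3 fell. The neutral invertase INVC (TRINITY_DN24757_c0_g1) had 18.7, 21.6 and 22.1 TPM in PF_D, against 62.9, 128 and 138 TPM in PF_L (-2.27 ± 0.42). Sugar transporters were split, 14 rises to 13 falls among 55, but their summed level was 1652, 1567 and 1589 TPM in PF_D, against 674, 653 and 663 TPM in PF_L. Much of it came from At2g48020 (TRINITY_DN26330_c0_g1), with 470.5, 424 and 352 TPM in PF_D, against 40.1, 32.3 and 36.4 TPM in PF_L (3.48 ± 0.15). Starch synthesis enzymes had 8 rises and 9 falls, which became 9 and 5 after median ratio scaling and 8 and 6 after quantile normalization. Starch breakdown enzymes had 11 rises and 10 falls (11 and 7 after median ratio scaling, 11 and 11 after quantile normalization). The breakdown list nevertheless summed to 2808, 4363 and 3587 TPM in PF_D, against 1501, 1292 and 1395 TPM in PF_L. Its largest rise was in R1 (TRINITY_DN28522_c1_g1), the glucan water dikinase that opens starch granules to attack, with 347, 614 and 447 TPM in PF_D, against 41.2, 38.1 and 42.8 TPM in PF_L (3.46 ± 0.23). A short alpha-glucan phosphorylase unigene of 246 bases, TRINITY_DN27554_c0_g2, was the most abundant of the list, with 518, 1016 and 766 TPM in PF_D, against 99.01, 86.9 and 115 TPM in PF_L (2.88 ± 0.29). In both, PF_D replicate 2 was the highest library.

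Genes of the petal surface were higher in sum in PF_D, with some of the largest falls of the comparison among them. Of 90 tested cutin and wax genes, 35 rose and 17 fell (10 after median ratio scaling), and the sum was 9129, 8818 and 7674 TPM in PF_D, against 2818, 2642 and 2602 TPM in PF_L. The fatty acid hydroxylase CYP86A22 (TRINITY_DN27437_c0_g1), of a P450 family that makes cutin monomers, had 599, 597 and 451 TPM in PF_D, against 29.5, 20.2 and 23.02 TPM in PF_L (4.45 ± 0.21). A short unigene described as cytochrome P450 86A7, TRINITY_DN20906_c2_g3, was the most abundant of the list, with 2217, 2208 and 1485 TPM in PF_D, against 126, 66.02 and 91.7 TPM in PF_L (4.39 ± 0.31). The largest fall of the list was in CYP77A4 (TRINITY_DN17679_c0_g1), a P450 that modifies fatty acids of cutin in Arabidopsis, with 0, 0.05 and 0.09 TPM in PF_D, against 115, 152 and 122 TPM in PF_L (-6.95 ± 0.25). The epidermis gene PDF1 (TRINITY_DN13966_c0_g1), a small cell wall protein of young outer cells, fell further, with 1.98, 0.99 and 0.63 TPM in PF_D, against 472, 540.1 and 504 TPM in PF_L (-7.89 ± 0.30). It was the largest fall among unigenes with a gene name. Lipid-transfer proteins carry lipids to the surface, and of 20 tested 6 rose and 7 fell. A single one, TRINITY_DN14065_c2_g1, related to a cherry protein, was the most abundant unigene of PF_D, with 11051, 12139.8 and 10498 TPM in PF_D, against 307, 257 and 249 TPM in PF_L (5.37 ± 0.23). Another, TRINITY_DN17527_c0_g1, went the other way, with 24.9, 13.6 and 43.2 TPM in PF_D, against 1039, 1012 and 827 TPM in PF_L (-5.23 ± 0.33). The GDSL esterases, a family with cutin-forming and other members, held both a leading rise and a leading fall. At1g20120 (TRINITY_DN27366_c0_g1) had 355, 514 and 374 TPM in PF_D, against 0.34, 0 and 0 TPM in PF_L (8.54 ± 0.27), and At5g03810 (TRINITY_DN13446_c0_g1) had 0.81, 0.74 and 1.45 TPM in PF_D, against 155, 160.2 and 148 TPM in PF_L (-6.30 ± 0.24). Plastid fatty acid synthesis enzymes, which make the precursors of all these lipids, were called in 2 rises (6.25%) and 3 falls (9.38%) of 32 tested, both under the shares of all tested unigenes. Of these, KAS1 (TRINITY_DN26087_c0_g1) had 149.9, 159 and 134 TPM in PF_D, against 14.4, 9.44 and 9.81 TPM in PF_L (3.62 ± 0.23), and the acyl carrier protein ACP1 (TRINITY_DN15881_c0_g2) had 1.75, 0.26 and 1.02 TPM in PF_D, against 107, 70.04 and 86.5 TPM in PF_L (-5.52 ± 0.43).

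Scent and related terpene genes were few. Of 18 tested terpene synthases, 4 rose and 7 fell. The most abundant was a relative of grape germacrene D synthase, TRINITY_DN24179_c0_g1, with 80.2, 153 and 98.96 TPM in PF_D, against 7.17, 22.4 and 12.4 TPM in PF_L (2.98 ± 0.44). Its spread within each stage was wide, and replicate 2 was highest in both. TPS9 (TRINITY_DN26499_c0_g1) had 13.97, 40.9 and 27.2 TPM in PF_D, against 49.1, 109.8 and 86.8 TPM in PF_L (-1.59 ± 0.37).

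Hormone genes showed different counts by hormone. Auxin-responsive AUX/IAA and SAUR genes, which report or curb the auxin response, had 25 rises and 11 falls among 61, with a median of 0.72. The most abundant, AUX28 (TRINITY_DN20042_c0_g2), had 854, 958 and 1007 TPM in PF_D, against 62.8, 48.4 and 60.8 TPM in PF_L (4.02 ± 0.16), while the largest fall was in SAUR50 (TRINITY_DN10632_c0_g1), with 0.38, 0.24 and 0.14 TPM in PF_D, against 16.1, 25.7 and 23.6 TPM in PF_L (-4.16 ± 0.31). Auxin response factors, the transcription factors of the same route, were split 7 to 9 among 41. ARF18 (TRINITY_DN24874_c0_g2) had 6.06, 5.72 and 5.4 TPM in PF_D, against 89.9, 84.4 and 80.02 TPM in PF_L (-3.67 ± 0.16). Cytokinin genes fell, with 23 of 58 called lower and 3 higher. LOG3 (TRINITY_DN11713_c0_g1), which makes active cytokinin, had 1.79, 0.52 and 1.57 TPM in PF_D, against 40.1, 41.95 and 35.6 TPM in PF_L (-4.18 ± 0.27).

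Gibberellin genes were called 8 times in each direction of 34 tested (8 rises and 7 falls after median ratio scaling), with abundant members on both sides. The receptor GID1C (TRINITY_DN18298_c0_g1) had 1865, 2025 and 1880.2 TPM in PF_D, against 473, 444 and 382 TPM in PF_L (2.15 ± 0.26). Of the small gibberellin-regulated proteins, GASA6 (TRINITY_DN17721_c0_g1) had 1493, 1141 and 2459 TPM in PF_D, against 38.96, 28.97 and 31.3 TPM in PF_L (5.58 ± 0.39), and GASA14 (TRINITY_DN19940_c0_g1) had 15.3, 4.28 and 10.5 TPM in PF_D, against 397, 319.9 and 411 TPM in PF_L (-5.23 ± 0.39). In ethylene synthesis, 8 unigenes gave 2 rises and 3 falls. A unigene of ACC oxidase, the last step, ACO1 (TRINITY_DN21701_c1_g1), had 1246, 1719.5 and 1469 TPM in PF_D, against 279, 307 and 367 TPM in PF_L (2.21 ± 0.18), and the unigene next to it in the assembly, TRINITY_DN21701_c1_g2, had 4.23, 3.04 and 3.78 TPM in PF_D, against 99.2, 198 and 129 TPM in PF_L (-4.88 ± 0.36). Ethylene-responsive transcription factors fell in 31 of 70 cases and rose in 10. ERF12 (TRINITY_DN17330_c0_g1) had 8.07, 0.61 and 1.86 TPM in PF_D, against 67.9, 90.9 and 95.3 TPM in PF_L (-4.61 ± 0.49), and ERF003 (TRINITY_DN15781_c0_g1) had 223, 209 and 264 TPM in PF_D, against 22.9, 33.5 and 24.7 TPM in PF_L (3.07 ± 0.50).

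Jasmonate synthesis enzymes were split, 14 rises to 14 falls among 47 (15 to 12 after median ratio scaling). Allene oxide cyclase, AOC (TRINITY_DN27103_c0_g3), had 110.3, 177 and 129.9 TPM in PF_D, against 4.11, 5.76 and 4.39 TPM in PF_L (4.59 ± 0.21). By contrast, the JAZ repressors and MYC2, which jasmonate itself induces, had 13 falls and 1 rise among 22. TIFY9 (TRINITY_DN23776_c0_g1) had 20.2, 6.22 and 11.2 TPM in PF_D, against 97.9, 266 and 165 TPM in PF_L (-3.73 ± 0.43), with PF_L replicate 1 the lowest of its stage. The WRKY list was lower in the same way, with 28 falls and 5 rises among 78. Many WRKY factors respond to wounding and pathogens. The most abundant, WRKY40 (TRINITY_DN25619_c0_g1), had 238, 86.05 and 141 TPM in PF_D, against 425, 777 and 661 TPM in PF_L (-2.07 ± 0.35), and the whole list summed to 1406, 1143 and 1221 TPM in PF_D, against 2384, 4588 and 4119 TPM in PF_L. The PF_L level of WRKY40 was lowest in replicate 1, and every PF_L library lay above every PF_D library. Abscisic acid genes had 5 rises (11.1%) and 8 falls (17.8%) among 45, near the 9.38% and 15.7% of all tested unigenes. The counts were 5 and 5 after median ratio scaling and 5 and 6 after quantile normalization. The degrading enzyme CYP707A1 (TRINITY_DN21788_c0_g1) had 21.9, 1.47 and 5 TPM in PF_D, against 26.6, 36.97 and 53.3 TPM in PF_L (-2.46 ± 0.64), a call lost without PF_L replicate 3, and over the 9 fits that leave out a library the fold change ran from -3.32 (without PF_D replicate 1) to -1.71 (without PF_D replicate 2) and the adjusted p of the limma test reached 0.051. Of 17 brassinosteroid genes 2 were called, 1 in each direction (only the rise after quantile normalization), or 5.88% each, under the shares of all tested unigenes.

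Among transcription factors, falls outnumbered rises in most families, as they did among all tested unigenes (15.7% and 9.38%), while single rises were large. MYB factors had 12 rises (12.1%) and 30 falls (30.3%) among 99. MYB305 (TRINITY_DN15202_c1_g1), related to a snapdragon flower MYB, had 1088, 1031 and 988 TPM in PF_D, against 26.8, 20.2 and 20.8 TPM in PF_L (5.47 ± 0.16). The largest fall was in MYB28 (TRINITY_DN21524_c1_g3), a short unigene of 203 bases, with 8.5, 1.72 and 4.24 TPM in PF_D, against 313, 339 and 287 TPM in PF_L (-5.93 ± 0.38). A short unigene matched to a regulator of anthocyanin genes, MYB114 (TRINITY_DN21029_c0_g2), was the most abundant MYB and had 1276, 1754 and 1285 TPM in PF_D, against 834, 658 and 788 TPM in PF_L, a log2 fold change of 0.91 ± 0.27 that did not reach the limit. The bHLH family had 25 rises (19.4%) and 44 falls (34.1%) among 129. BPE (TRINITY_DN25467_c0_g2), whose Arabidopsis relative limits petal size through cell expansion, had 1439, 1321 and 1064 TPM in PF_D, against 43.7, 26.6 and 38.9 TPM in PF_L (5.11 ± 0.20). PRE6 (TRINITY_DN17989_c0_g1), a small bHLH without a DNA-binding region that promotes elongation, had 297, 255 and 276 TPM in PF_D, against 1.31, 0.85 and 0.87 TPM in PF_L (7.11 ± 0.22). SPT (TRINITY_DN14793_c0_g1), a regulator of carpel margins that also restrains organ growth, had 0.18, 0.67 and 1.07 TPM in PF_D, against 29.5, 43.1 and 41.9 TPM in PF_L (-4.60 ± 0.24).

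NAC factors had 10 rises (13.2%) and 23 falls (30.3%) among 76. NAC100 (TRINITY_DN18304_c0_g1) had 51.7, 38.9 and 64.3 TPM in PF_D, against 3.04, 3.01 and 2.44 TPM in PF_L (3.76 ± 0.22), and NAC035 (TRINITY_DN23932_c0_g1) had 2.23, 0.23 and 0.47 TPM in PF_D, against 26.1, 89.2 and 77.3 TPM in PF_L (-5.00 ± 0.47). Homeobox and zinc finger homeodomain genes fell in 40 (38.8%) of 103 cases and rose in 9 (8.74%). ROC3 (TRINITY_DN28147_c1_g1), of a class active in the outer cell layer, had 0.89, 1.49 and 1.93 TPM in PF_D, against 51.1, 86.7 and 74.5 TPM in PF_L (-4.87 ± 0.25). MADS-box genes had more rises than falls, with 9 rises and 3 falls among 40. AGL65 (TRINITY_DN24830_c0_g1), whose Arabidopsis relative is known from pollen, had 65.8, 98.2 and 62.5 TPM in PF_D, against 1.31, 1.32 and 1.1 TPM in PF_L (5.06 ± 0.23), and the unigene of the same assembly cluster, TRINITY_DN24830_c0_g2, related to the petunia B-class gene FBP1, had 59.9, 87.3 and 61.1 TPM in PF_D, against 2.83, 2.2 and 2.87 TPM in PF_L (4.26 ± 0.20). The flowering-promoting FPF1 (TRINITY_DN24688_c0_g5) was in no list and had one of the 15 largest rises, with 54.5, 123 and 156 TPM in PF_D, against 0.05, 0.04 and 0.04 TPM in PF_L (6.62 ± 0.35).

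**Figure D4:**
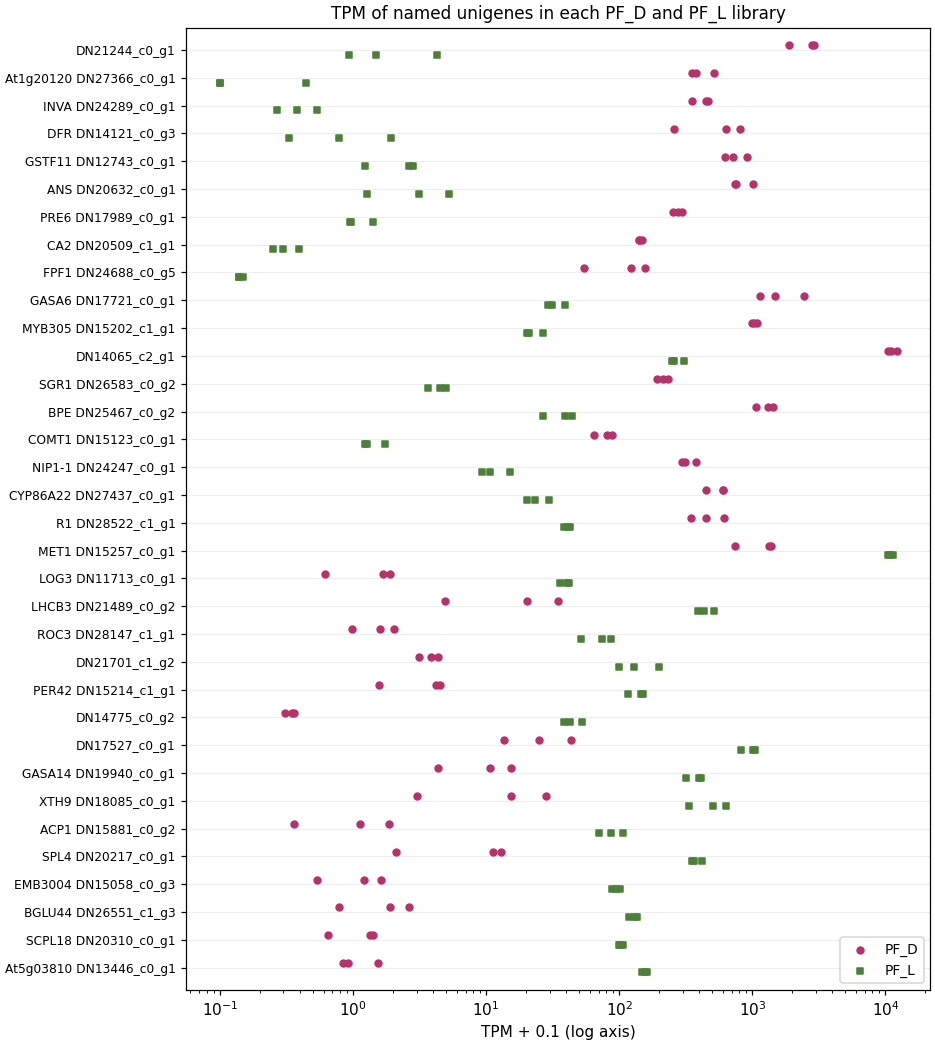
TPM of 34 unigenes named in the text in each library, plus 0.1, on a log axis. Circles are the 3 PF_D libraries and squares the 3 PF_L libraries of each unigene, which are ordered by log2 fold change. In none of the 34 do the stages overlap. INVA lies at 352 to 462 TPM in PF_D, against 0.17 to 0.44 TPM in PF_L, and SPL4 at 2.01 to 12.9 TPM in PF_D, against 351 to 416 TPM in PF_L.

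Where 2 or more unigenes with the same protein match were called, the calls mostly went in 1 direction, and some went apart. Among 3762 proteins matched by 2 or more tested unigenes, 971 had at least 2 called unigenes. In 207 of these all calls were rises, in 521 all were falls and in 243 (25.0%) there were calls in both directions. The examples of the last kind given here were chosen after their values were seen. Of 10 tested unigenes matched to the rice laccase LAC9, an enzyme that oxidizes phenolics in the wall, LAC9 (TRINITY_DN23279_c1_g1) had 628, 1571 and 735 TPM in PF_D, against 104, 111 and 104 TPM in PF_L (3.07 ± 0.34), while 7 others were called lower. The largest falls of these were in TRINITY_DN14310_c1_g1, with 0.82, 0.14 and 0.25 TPM in PF_D, against 279, 278 and 273 TPM in PF_L (-7.66 ± 0.37), and TRINITY_DN27459_c0_g1, with 0.12, 0.33 and 0.28 TPM in PF_D, against 62.95, 63.6 and 50.5 TPM in PF_L (-5.59 ± 0.23). Of 10 tested unigenes matched to another laccase, LAC14, 2 were called higher and 1 lower. The one that fell, TRINITY_DN13916_c0_g2 of 393 bases, had 70.98, 72.02 and 53.7 TPM in PF_L and was listed at 0 in all 3 PF_D libraries. The larger rise was in TRINITY_DN20758_c1_g1, with 65.5, 193.9 and 135.8 TPM in PF_D, against 2.87, 2.95 and 3.02 TPM in PF_L (4.94 ± 0.36). Of 5 matched to SEOB, a protein of sieve elements, TRINITY_DN13962_c0_g1 had 245, 553 and 319 TPM in PF_D, against 40.03, 40.2 and 43.8 TPM in PF_L (3.05 ± 0.28), and TRINITY_DN24911_c1_g1 had 7.32, 5.76 and 24.1 TPM in PF_D, against 665, 614 and 719 TPM in PF_L (-5.89 ± 0.41). Phloem and xylem markers as a list had 3 rises and 7 falls of 22 tested and summed to 357, 699 and 472 TPM in PF_D, against 1288, 1311 and 1384 TPM in PF_L. Allene oxide cyclase likewise had a unigene that rose and one, TRINITY_DN16933_c0_g1, with 8.08, 8.76 and 8.08 TPM in PF_D, against 31.1, 63.4 and 56.7 TPM in PF_L (-2.40 ± 0.39). Of 6 unigenes matched to the amino acid transporter AATL1, TRINITY_DN17521_c0_g2 had 11.3, 5.4 and 10.6 TPM in PF_D, against 2.1, 1.05 and 1.02 TPM in PF_L (2.05 ± 0.31), and 4 others fell. The 2 unigenes of WRKY6 that were called also went apart. TRINITY_DN23106_c0_g1 had 22.9, 72.1 and 37.2 TPM in PF_D, against 0, 0 and 0.05 TPM in PF_L (5.32 ± 0.38), and TRINITY_DN25707_c0_g1 had 3.57, 2.31 and 5.3 TPM in PF_D, against 6.8, 43.3 and 49.3 TPM in PF_L (-2.50 ± 0.62). Such unigenes can be gene copies, subgenome copies of this polyploid or pieces of 1 transcript, which the table does not tell apart, and reads that fit several of them may have been split among them.

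**Figure D5:**
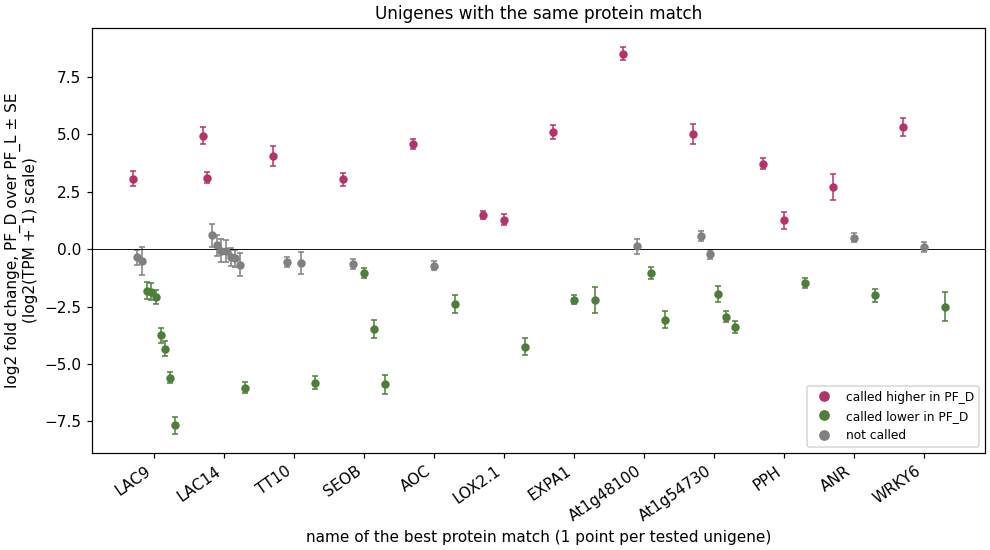
Log2 fold change of PF_D over PF_L, with its standard error, for every tested unigene matched to 12 proteins, 1 point per unigene. Points above 0 are higher in PF_D, and colored points were called. Each of these 12 proteins, picked after the values were seen, has at least 1 unigene called in each direction, as LAC9 does with 1 rise and 7 falls.

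Some unigenes stood under 1 TPM in 1 stage and at 10 TPM or more in the other. At 10 TPM or more in all 3 PF_D libraries and under 1 TPM in all 3 PF_L libraries were 87 unigenes, 7 of them listed at 0 in all 3 PF_L libraries. In the other direction there were 157, of which 19 were listed at 0 in all 3 PF_D libraries. Members of the first set included At1g20120, INVA, CA2 and FPF1, already given, and the nitrate transporter NRT2.7 (TRINITY_DN12025_c0_g3), with 17.3, 15.1 and 15.8 TPM in PF_D, against 0.42, 0.71 and 0.41 TPM in PF_L (3.50 ± 0.22). A unigene whose best match was a mouse RNA helicase, Ddx47 (TRINITY_DN24377_c0_g2), had 136, 254 and 208 TPM in PF_D, against 0.03, 0.09 and 0.12 TPM in PF_L (7.49 ± 0.39). The second set included 1 of 4 tested unigenes matched to the laccase relative TT10, TRINITY_DN14709_c0_g7, with 57.9, 56.1 and 52.2 TPM in PF_L and a listing at 0 in each PF_D library. Another TT10 unigene, TRINITY_DN23279_c0_g1, was called higher, with 29.4, 113.6 and 78.2 TPM in PF_D, against 3.98, 2.48 and 2.33 TPM in PF_L (4.07 ± 0.43). The second set also included a beta-glucosidase, BGLU44 (TRINITY_DN26551_c1_g4), with 0.62, 0 and 0.72 TPM in PF_D, against 134, 152 and 127 TPM in PF_L (-6.62 ± 0.26). The companion unigene of that beta-glucosidase in the assembly, TRINITY_DN26551_c1_g3, had 0.69, 1.79 and 2.51 TPM in PF_D, against 131, 135 and 119 TPM in PF_L (-5.66 ± 0.33). Another large fall was in SCPL18 (TRINITY_DN20310_c0_g1), a serine carboxypeptidase-like protein of a family that includes acyltransferases, with 0.55, 1.3 and 1.24 TPM in PF_D, against 99.7, 106.2 and 102 TPM in PF_L (-5.69 ± 0.40).

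Some of the largest rises and falls belonged to genes not given so far. The largest rise among unigenes with a gene name was that of SMT (TRINITY_DN17186_c0_g3), matched to an O-methyltransferase of alkaloid synthesis, with 1096, 1419 and 1755 TPM in PF_D, against 1.23, 1.29 and 1.01 TPM in PF_L (9.33 ± 0.18). The mini zinc finger gene MIF2 (TRINITY_DN18374_c1_g1), whose Arabidopsis relatives curb larger zinc finger homeodomain factors, had 351, 365 and 301 TPM in PF_D, against 0.1, 0.08 and 0.1 TPM in PF_L (8.28 ± 0.17). The clock gene APRR1 (TRINITY_DN14704_c0_g1) had 225, 225 and 148 TPM in PF_D, against 0, 0.26 and 0.2 TPM in PF_L (7.42 ± 0.30). All 3 were at no more than a few TPM in every PF_L library. The transporter DTX55 (TRINITY_DN22571_c0_g1) of the MATE family, whose members export small molecules, had 275, 419 and 284 TPM in PF_D, against 0.56, 0.33 and 0.26 TPM in PF_L (7.86 ± 0.39). Its family as a whole had 8 rises and 18 falls among 62. The plastid fatty acid desaturase ADS3 (TRINITY_DN14016_c0_g1) had 0.03, 0 and 0.13 TPM in PF_D, against 191, 253 and 205 TPM in PF_L (-7.68 ± 0.38).

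The most abundant transcripts also changed between the stages. The 10 most abundant unigenes held 4.43% to 5.41% of all TPM in the PF_D libraries, against 4.12% to 4.87% in the PF_L libraries. Only 2 unigenes were among the first 10 of both stages, and 43 among the first 100 of both. Of the first 10 of PF_D 8 were called, and of the first 10 of PF_L 5. The strawberry metallothionein MET1 (TRINITY_DN15257_c0_g1), a small metal-binding protein, led PF_L and had 1331, 736 and 1377 TPM in PF_D, against 11488, 10422 and 10823 TPM in PF_L (-3.30 ± 0.27). Shared by both was the proline-rich protein TPRP-F1 (TRINITY_DN13546_c0_g1), with 7381, 7458 and 6833 TPM in PF_D, against 4805, 2403 and 3843 TPM in PF_L (1.03 ± 0.35). Its adjusted p in the limma test was 0.044, and the call was lost under 9 of 21 alternatives, namely a pseudocount of 0.1, quantile normalization, the replicate block, the limit of 0.01 and the fits without PF_L replicate 2 or 3 or without any PF_D replicate. Over the 9 fits that leave out a library its fold change ran from 0.75 to 1.25 and its adjusted p reached 0.16. LTL1 (TRINITY_DN19295_c0_g3), a GDSL esterase, was among the first 10 of PF_L and had 1674, 34.5 and 3617 TPM in PF_D, against 7916, 4040.0 and 6673 TPM in PF_L. PF_D replicate 2 stood far below the other PF_D libraries, and the unigene was not called, with an adjusted p of 0.081 in the limma test. The fold change of LTL1 was -1.28 without PF_D replicate 2 and -4.62 without PF_D replicate 3, where it was called, and its adjusted p ran from 0.024 to 0.17 over the fits that leave out a library.

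The largest rise and the largest fall of all belonged to unigenes without a gene name, and these were picked after their values were seen. TRINITY_DN21244_c0_g1, of 767 bases and with no protein description, had 2827, 2902 and 1897 TPM in PF_D, against 4.15, 0.83 and 1.38 TPM in PF_L (9.79 ± 0.52) and was among the 10 most abundant unigenes of PF_D. TRINITY_DN11449_c0_g3, described as a glycine-rich cell wall protein, had 1.84, 0.43 and 2.38 TPM in PF_D, against 771, 749 and 635 TPM in PF_L (-8.23 ± 0.40). A further large rise was that of TRINITY_DN13021_c0_g1, an uncharacterized protein, with 383, 938 and 744 TPM in PF_D, against 0, 0.26 and 0 TPM in PF_L (9.22 ± 0.30). Of the 100 largest rises among unigenes at a mean of 10 TPM or more in the higher stage, 10 had no description, and of the 100 largest falls 9. Descriptions were present for 65.5% of the unigenes called higher, 76.2% of those called lower and 62.4% of all tested.

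The stage at which color begins lay between PF_L and PF_D for most called unigenes. For the 4497 unigenes called higher in PF_D, PF_Z had covered a median of 18.7% of the way from PF_L to PF_D on the log2 scale, and for the 7545 called lower a median of 44.0%. Among the rises, the PF_Z mean lay between the stages and nearer to PF_L for 2619 unigenes and nearer to PF_D for 658, on the far side of PF_L for 1082 and beyond PF_D for 138. Among the falls these numbers were 3383, 2855, 973 and 334. These shares are a description with no test, since the unigenes were chosen by the PF_D and PF_L values that set both ends of the scale. INVA averaged 5.77 ± 1.48 TPM in PF_Z (SD, n = 3), above its PF_L level of under 1 TPM and far below its PF_D level.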

How the data were processed

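Petal RNA of 9 libraries, 3 per stage, was sequenced after poly-A selection as paired-end reads. The authors trimmed the reads, assembled all libraries together with Trinity without a genome, kept the longest transcript of each cluster as a unigene and annotated it by its best protein match. The deposited values are TPM, computed by the authors, and the program that made them is not given in the sources used here. The submitters' processing notes name StringTie 1.3.0, HISAT2 2.0, Bowtie 0.12.2 and a genome build, mm8, without saying what each was used for. TPM keeps no read counts per unigene, so no counting interval is given. The paper lists the reads of each library, fewest for PF_L replicate 1, and these totals were not used here. Listed TPM summed to 993148 to 994911 per library. No sequences or coordinates of the unigenes were used here.

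Unigenes that reached 1 TPM in 3 or more libraries were fitted as log2(TPM + 1) with limma 3.58.1 (R 4.3.3), all 3 stages in 1 model with a variance trend, and p-values were adjusted over all tested unigenes by the Benjamini-Hochberg method. The authors had used edgeR for their own comparisons; it was not used here because it needs counts. The fit was tested on simulated data. Unigenes to be named were chosen as the 15 largest called rises and falls that had a gene name, PF_D and PF_L values that did not overlap, and a mean of 10 TPM or more in the stage where they were higher, in each list the largest called rise and fall at that level and the member with the highest mean, and the 10 most abundant unigenes of each stage. This rule gave 185 unigenes. All of the largest rises and falls are described, and part of the list members and of the most abundant unigenes is left to the counts. Further unigenes of a family already named by the rule, and those without a gene name, were chosen after their values were seen. The comparison, the rule and the gene lists were chosen with earlier results of these data known. Alternatives were other pseudocounts (0.1 and 5), filters, scalings, limma settings, an adjusted p limit of 0.01, a replicate block and leaving out each library. The labels call the libraries of a stage replicates, and the study's methods call them biological replicates.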

Additional observations from a re-analysis of the deposited data

How the results depend on the processing

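Of the alternatives tried, 21 in all, none reversed a called unigene. The number of calls, 12042 on the values as described (4497 higher and 7545 lower in PF_D), moved by over 1.5 times under 2 of them. With a pseudocount of 5 it was 5384 (2184 higher and 3200 lower), and with a filter of 5 TPM, which tests only 23998 unigenes, it was 7478 (2790 higher and 4688 lower). Leaving out each library in turn gave 10661 to 12231 calls, with 4059 to 4525 higher and 6602 to 7706 lower. The naming rule gave 185 unigenes, not all of them described above, and 152 were called. Of these 145 kept their call under every alternative and 7 lost it under at least 1. Among those that were not called, 3 changed sign. RPL10 was at 0.07 after median ratio scaling, and PIP2-7 was at -0.06 after quantile normalization. Leaving out each library in turn gave -0.04 (without PF_D replicate 2) to 0.29 (without PF_D replicate 1) for FLA2, a fasciclin-like arabinogalactan protein, and -0.20 (without PF_D replicate 1) to 0.28 (without PF_D replicate 3) for PIP2-7. The cause was not tested. Deviations of PF_D and PF_L libraries with the same replicate number correlated at 0.0083, -0.032 and 0.022 across unigenes. Not every library correlated best with its own number. No effect shared by libraries of the same number was seen, but such correlations cannot tell whether samples were taken or prepared in matched sets. A fit with the replicate number as a block gave 11794 calls (4412 higher and 7382 lower). With 3 libraries per stage and no read counts, differences in unigenes at a few TPM are the least certain.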
